A study of Mus musculus with 8 samples.

Results

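The genes described are 10 mouse genes of iron handling and heme, measured in liver. They are *Hamp* (hepcidin) and its duplicate *Hamp2*, *Tfrc* and *Tfr2* (transferrin receptors), *Trf* (transferrin), *Fth1* and *Ftl1* (ferritin), *Slc40a1* (ferroportin), *Alas1* (heme synthesis) and *Hmox1* (heme breakdown). They were listed by name, with earlier results of these data known, and were found in the count table through their Ensembl identifiers in the GENCODE annotation of GRCm38. All 10 were among the 45706 identifiers of the table and all 10 passed the filter on low counts, which left 15491 genes to test. Liver RNA of 8 male mice, whose strain is labelled C56B6/J, was sequenced, 4 with the genotype label Srsf10KD (here *Srsf10-kd*) and 4 labelled WT (here *Ctrl*). Every mouse had received an AAV2/8 virus by tail vein at 6 weeks of age, with the ubiquitous CBA promoter driving a short hairpin RNA in a microRNA backbone together with GFP. The hairpin was directed to *Srsf10*, a splicing regulator, in the *Srsf10-kd* group and was a control hairpin in the *Ctrl* group. From 4 weeks after injection both groups were fed a diet with 60% of calories from fat, for 12 weeks. The knockdown was thus delivered by virus rather than by a germline allele, the promoter is not specific to hepatocytes, and the tissue is whole liver.

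Iron in blood travels bound to transferrin, which hepatocytes secrete, and enters cells through the transferrin receptor TFR1, the product of *Tfrc*. Inside the cell it is stored in ferritin, a shell of heavy (*Fth1*) and light (*Ftl1*) chains, is built into heme by a pathway that starts with ALAS1, or leaves through the exporter ferroportin. The liver sets the iron supply of the whole body by secreting hepcidin, a short peptide that makes ferroportin be degraded. Hepcidin transcription responds to iron through BMP signals and the sensor TFR2, and to inflammation through STAT3.

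Several of these messages are also controlled after transcription by iron regulatory proteins, which bind a hairpin called the iron-responsive element. A bound element in the 5′ UTR blocks translation, and bound elements in the 3′ UTR protect the message from decay, so a change in iron can alter the protein of the former group with no change in read count. The annotated transcripts (GENCODE M21, GRCm38) were searched for a C, 5 bases, the loop CAGTGN and 5 bases that pair with the 5 before the loop. A match lay in a UTR of 4 of the 10 genes, *Fth1*, *Ftl1*, *Slc40a1* and *Tfrc*, with 4 matches in *Tfrc*. Over 21877 protein-coding genes, 0.142% held a match in the 5′ UTR and 0.590% in the 3′ UTR. The elements are printed to show which messages carry one and how alike the ferritin pair is, with the loop in capitals.
*Fth1*, 5′ UTR, chr19:9982731-9982760 (+): tttcctgcttcaaCAGTGCttgaacggaac
*Ftl1*, 5′ UTR, chr7:45459779-45459808 (−): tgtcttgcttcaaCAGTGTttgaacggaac
*Slc40a1*, 5′ UTR, chr1:45925465-45925494 (−): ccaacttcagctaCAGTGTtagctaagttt
*Tfrc*, 3′ UTR, chr16:32631218-32631247 (+): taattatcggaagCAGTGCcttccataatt
*Tfrc*, 3′ UTR, chr16:32631597-32631626 (+): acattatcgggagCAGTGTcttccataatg
*Tfrc*, 3′ UTR, chr16:32631662-32631691 (+): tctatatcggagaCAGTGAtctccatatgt
*Tfrc*, 3′ UTR, chr16:32631709-32631738 (+): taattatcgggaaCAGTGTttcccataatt

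Each liver gave between 50456404 and 59697241 counts, and a chi-square comparison of all 28 pairs of livers found none alike. *Srsf10* itself had 34.0 to 41.0 CPM (counts scaled to a common library size by edgeR's TMM method) in the livers that carry the *Srsf10-kd* label and 30.9 to 35.3 CPM in *Ctrl*, and so was not lower (log2 fold change 0.15 ± 0.10 SE, adjusted p = 0.378 by edgeR). The counts do not measure SRSF10 protein, and the directions below are those of the labels. *Srsf10-kd* 3 stood apart on the main axis of variation, which held 44.8% of the variance, with a score of 67.4 against 1.92 to 11.5 in the other *Srsf10-kd* livers. Many of the values that this liver moved are given without it too.

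None of the 10 genes passed the edgeR test between livers labelled *Srsf10-kd* and *Ctrl* at an adjusted p under 0.05, where 0.0710% of all genes tested did (11 of 15491, all lower). The messages that differed most were *Hamp2*, *Trf*, *Hamp* and *Fth1*, all with higher means in *Srsf10-kd*, while the receptors, ferroportin, the ferritin light chain and both heme enzymes had log2 fold changes between −0.13 and 0.19. In all, 8 log2 fold changes were above 0 and 2 below, against 51.3% above 0 over all genes, and their median was 0.15 against 0.01 (0.062 without *Srsf10-kd* 3). An unadjusted edgeR p under 0.05 was found for 3 of the 10 (*Trf*, *Hamp2* and *Fth1*), all higher, where 11.2% of all genes had such a p and were higher. The groups did not overlap for 2 (*Trf* and *Fth1*), both higher, where 6.73% of all genes were higher with no overlap. Without *Srsf10-kd* 3 these counts were again 3 and 2, where 7.73% and 7.68% of all genes did so. DESeq2 and limma-voom each called *Trf* alone of the 10, where they called 5.21% and 11.7% of the genes they tested. The p-values measure the spread between these 8 livers. In whole liver, fewer cells of a type and less RNA per cell cannot be told apart.

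**Figure D1:**
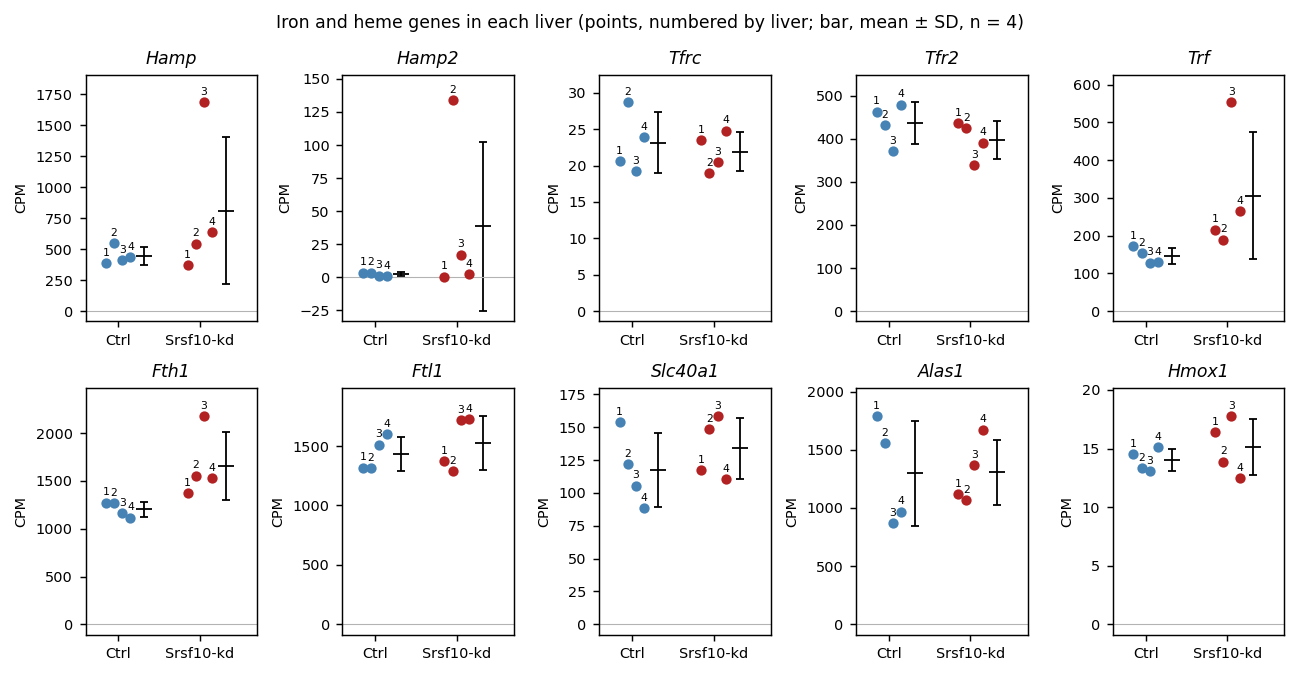
Level of each of the 10 genes in each liver (y axis, CPM after TMM normalization; points, livers numbered within their group; bars, mean ± SD, n = 4), with *Ctrl* in blue and *Srsf10-kd* in red. *Srsf10-kd* 3 is the highest liver for *Hamp* (1683 CPM), *Trf* (552 CPM) and *Fth1* (2181 CPM), *Srsf10-kd* 2 is the highest for *Hamp2* (134 CPM), and the groups separate only for *Trf* and *Fth1*.

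The ferritin heavy chain, the subunit that oxidises iron for storage, was higher in each of the 4 livers labelled *Srsf10-kd* than in any *Ctrl* liver, whereas the light chain was not. *Fth1* (chr19:9980598-9985098, + strand) measured 1274, 1265, 1164 and 1116 CPM in *Ctrl* 1 to 4 and 1370, 1555, 2181 and 1530 CPM in *Srsf10-kd* 1 to 4. The lowest *Srsf10-kd* liver was above the highest *Ctrl* liver, and *Srsf10-kd* 3 was well above the other 7. The means were 1659 ± 358 and 1205 ± 77.3 CPM (SD, n = 4), a log2 fold change of 0.46 ± 0.16 (SE) with an edgeR adjusted p of 0.161. The two-sided exact permutation p was 0.0286, the smallest that 4 against 4 livers can give, and only restates that the groups did not overlap. Without *Srsf10-kd* 3 the log2 fold change was 0.30 (adjusted p = 0.217, edgeR).

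*Ftl1* (chr7:45457944-45459884, − strand), whose chain nucleates the iron core, measured 1318, 1314, 1512 and 1600 CPM in *Ctrl* and 1374, 1290, 1717 and 1726 CPM in *Srsf10-kd*. The groups overlapped, and the lowest of the 8 livers was an *Srsf10-kd* liver. The log2 fold change was 0.09 ± 0.14 (adjusted p = 0.718, edgeR). The ratio of the *Fth1* to the *Ftl1* count in the same liver lay between 0.698 and 0.966 in *Ctrl* and between 0.887 and 1.27 in *Srsf10-kd*, ranges that overlap. The *Ftl1* level is uncertain, since 51.3% of the 75-base stretches of its transcripts also occur in other genes, 4 of them pseudogenes, and such reads may have been left out of the count. No such limit applies to *Fth1*, where the share was 0.882%.

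Transferrin, the iron carrier of plasma, was the member called by DESeq2. *Trf* (chr9:103204001-103230444, − strand) measured 171, 154, 128 and 130 CPM in *Ctrl* 1 to 4 and 216, 189, 552 and 264 CPM in *Srsf10-kd* 1 to 4. The groups did not overlap, and *Srsf10-kd* 3 was again the highest. The means were 305 ± 168 and 146 ± 20.6 CPM (SD, n = 4), 2.09 times as high in *Srsf10-kd*. The difference was 1.07 ± 0.31 (SE) on the log2 scale, and its adjusted p was 0.133 by edgeR, 0.0206 by DESeq2 and 0.0400 by limma-voom. The exact permutation p of 0.0286 again only restates that the groups did not overlap. Without *Srsf10-kd* 3 the group was at 223 ± 37.9 CPM (n = 3) and the log2 fold change was 0.61 (adjusted p = 0.125, edgeR).

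The *Trf* count may cover only a small piece of the message. A longer gene on the same strand, *Gm20425* (chr9:103190208-103230307), contains 82.0% of the longest *Trf* transcript, and STAR counts a read only where it touches the exons of a single gene. Of the 2571 bases of that transcript, 463 lie outside *Gm20425*. They comprise 284 bases of the last exon (exon 17), 137 of exon 1 and 42 of exon 5. *Gm20425* was among the deposited identifiers, so the authors' annotation held it, and it had 0 counts in all 8 livers. If that annotation gave *Gm20425* these exons, the *Trf* values and the calls of *Trf* are those of reads outside it. The other exons were not analysed here.

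Hepcidin, the peptide that restrains iron export, had a higher mean in *Srsf10-kd* that rested on a single liver. *Hamp* (chr7:30942368-30944032, − strand) measured 385, 550, 408 and 432 CPM in *Ctrl* 1 to 4 and 373, 544, 1683 and 638 CPM in *Srsf10-kd* 1 to 4. *Srsf10-kd* 3 was the highest of all livers and *Srsf10-kd* 1 the lowest, so the groups overlapped. The log2 fold change was 0.87 ± 0.40 (adjusted p = 0.240, edgeR), and the exact permutation p was 0.257. By limma-voom it was 0.20 (adjusted p = 0.609). Without *Srsf10-kd* 3 the mean was 518 ± 134 CPM (SD, n = 3), against 444 ± 73.2 CPM in *Ctrl* (n = 4), and the log2 fold change was 0.22 (adjusted p = 0.588, edgeR).

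*Hamp2*, the neighbouring duplicate of the hepcidin gene in mice, was the most variable of the 10. It lies at chr7:30922372-30924681 (− strand) and measured 3.47, 3.48, 1.23 and 0.667 CPM in *Ctrl* 1 to 4, and 0.540, 134, 17.2 and 2.65 CPM in *Srsf10-kd* 1 to 4. The highest liver was 248 times the lowest, and both belonged to *Srsf10-kd*. The counts behind these values ran from 31 to 6971. The log2 fold change of 4.11 ± 1.39 had an adjusted p of 0.160 by edgeR and 0.0535 by DESeq2, and an exact permutation p of 0.371. It was 0.44 by limma-voom, which gives less weight to libraries that deviate (adjusted p = 0.854), and 2.61 with a replicate block (adjusted p = 0.221, edgeR). Without *Srsf10-kd* 2 it was 1.60 (adjusted p = 0.314, edgeR), and without *Srsf10-kd* 3 it was 4.35 (adjusted p = 0.198, edgeR).

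The liver with the most *Hamp2* was not the liver with the most *Hamp*. The ratio of *Hamp* to *Hamp2* CPM lay between 111 and 648 in *Ctrl*. In *Srsf10-kd* 1 to 4 it was 690, 4.06, 98.1 and 240, so *Srsf10-kd* 2 had by far the lowest ratio. The genes are close copies, with coding sequences of 249 and 252 bases that were identical at 92.5% of aligned positions, yet 3.87% of the 75-base stretches of *Hamp* and 6.29% of those of *Hamp2* occurred in another gene. Whether *Hamp* reads were counted for *Hamp2*, in a share that may vary between livers, was not tested. On the other strand *Gm44662* overlaps 15.3% of the *Hamp2* exon bases. The last 30 coding bases, which encode the end of the mature peptide, are printed to show how far the copies differ there, with the 9 differing bases in capitals.
*Hamp*: aaTTccCAGtgtggtatctgttgCAaaACa
*Hamp2*: aaACccTCCtgtggtatctgttgTGaaGAa

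The receptors through which cells take up or sense transferrin did not differ beyond the spread between livers. *Tfrc* (chr16:32608920-32632794, + strand), the message with the 3′ elements above, measured 20.6, 28.7, 19.3 and 23.9 CPM in *Ctrl* and 23.5, 18.9, 20.5 and 24.8 CPM in *Srsf10-kd*. The groups covered much the same range, with a log2 fold change of −0.08 ± 0.15 (adjusted p = 0.769, edgeR), whose sign turned without *Ctrl* 2 (0.043) and with the length trend described below removed (0.10). *Tfr2* (chr5:137569840-137587481, + strand), the hepatocyte's sensor of iron-loaded transferrin, measured 464, 432, 371 and 480 CPM in *Ctrl* and 436, 425, 339 and 392 CPM in *Srsf10-kd*. These ranges overlapped too, and the log2 fold change was −0.13 ± 0.13 (adjusted p = 0.527, edgeR), or −0.064 without *Srsf10-kd* 3. *Slc40a1* (chr1:45908068-45926523, − strand), the exporter that hepcidin targets, measured 154, 122, 106 and 88.3 CPM in *Ctrl* and 118, 149, 159 and 111 CPM in *Srsf10-kd*. Both groups spread widely and overlapped, and the log2 fold change was 0.19 ± 0.19 (adjusted p = 0.544, edgeR), or −0.023 by limma-voom.

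Neither heme enzyme differed in level between the groups beyond the spread between livers. *Alas1* (chr9:106233455-106248654, − strand), the enzyme that sets the rate of heme synthesis in liver, measured 1793, 1558, 869 and 969 CPM in *Ctrl* and 1117, 1066, 1367 and 1673 CPM in *Srsf10-kd*. *Ctrl* held both the highest and the lowest liver, 2.06 times apart, and the log2 fold change was 0.01 ± 0.25 (adjusted p = 0.985, edgeR), with a sign that turned under several settings. *Hmox1* (chr8:75093621-75100589, + strand), the inducible oxygenase that opens the heme ring and releases its iron, measured 14.5, 13.3, 13.1 and 15.1 CPM in *Ctrl* and 16.4, 13.9, 17.8 and 12.5 CPM in *Srsf10-kd*. The *Ctrl* livers all fell within the *Srsf10-kd* range, and the log2 fold change was 0.11 ± 0.13 (adjusted p = 0.609, edgeR), or −0.070 with the length trend removed and 0.025 without *Srsf10-kd* 3.

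Transcript length moved with the comparison over all genes and so stands beside these values. The median log2 fold change was 0.41 in the 1690 genes with transcripts under 1 kb and −0.21 in the 4623 genes with transcripts over 4 kb. *Hamp*, *Hamp2* and *Ftl1* are under 1 kb long (410, 437 and 968 bases). When each library's trend of counts on length was removed, the log2 fold change of *Trf* was 1.04 and that of *Hamp2* was 3.80, while those of *Hamp* and *Fth1* were 0.31 and 0.26, and that of *Ftl1* turned to −0.20. The median of the 10 was then 0.17, with 7 higher and 3 lower. The removal used the full 2571 bases of *Trf*. It need not fit a *Trf* count that may come from only the 463 bases outside *Gm20425*. The part of length in these differences was not tested.

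**Figure D2:**
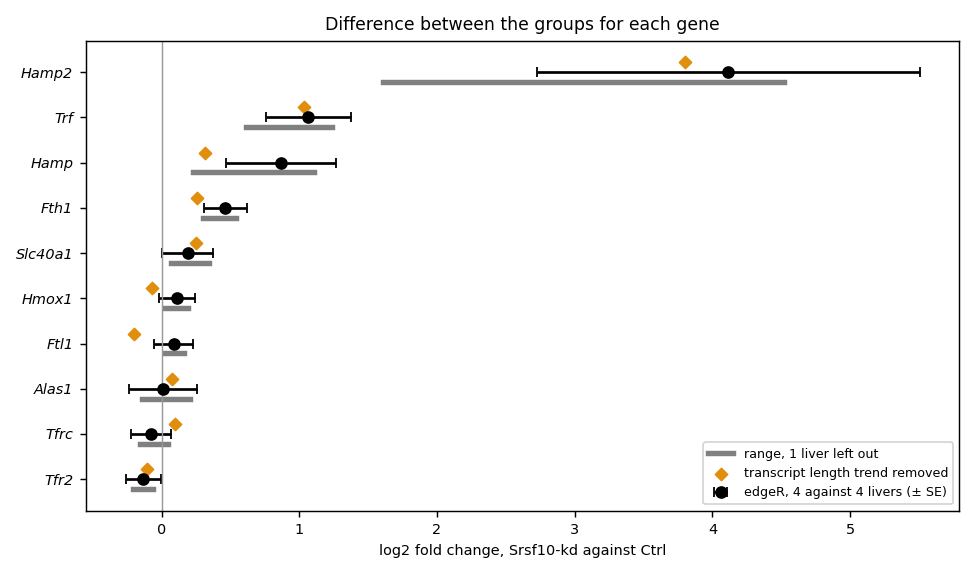
Log2 fold change of each gene, *Srsf10-kd* against *Ctrl* (x axis; black, edgeR estimate ± SE from 4 against 4 livers; grey bar, range with each liver left out in turn; orange, with the transcript length trend removed). The estimates for *Hamp2* (4.11), *Trf* (1.07), *Hamp* (0.87) and *Fth1* (0.46) lie above 0 in each of these settings, and the black estimates of the other 6 genes lie between −0.13 and 0.19, with *Slc40a1* reaching 0.34 without *Ctrl* 1.

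The 10 messages spanned a wide range of levels, here compared per kb of the longest coding transcript in *Ctrl* livers. Ferritin and hepcidin led, with mean levels of 1484 CPM per kb for *Ftl1*, 1083 for *Hamp* and 806 for *Fth1*, followed by *Alas1* at 382 and *Tfr2* at 142. *Trf* was at 56.7 CPM per kb, a level that may be too low because reads from most of its exons also touch *Gm20425*, and *Slc40a1* at 34.9. *Hmox1* (8.94), *Hamp2* (5.07) and *Tfrc* (4.73) were the lowest. Between neighbours in this order, the *Ctrl* ranges overlapped only for *Hamp2* with *Tfrc* (1.53 to 7.97 and 3.94 to 5.87 CPM per kb). In the livers labelled *Srsf10-kd* the mean of *Hamp* was above that of *Ftl1* (1974 against 1577 CPM per kb), and *Hamp2* moved from place 9 to place 7 with a mean of 88.3 CPM per kb. Without *Srsf10-kd* 3 the mean of *Hamp* was below that of *Ftl1* (1264 against 1512 CPM per kb). Without *Srsf10-kd* 2 the mean of *Hamp2* was 15.5 CPM per kb, at place 8, still above *Hmox1* (9.92). With the union of all exons as the length, *Hamp* and *Ftl1* changed places in *Ctrl*.

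**Figure D3:**
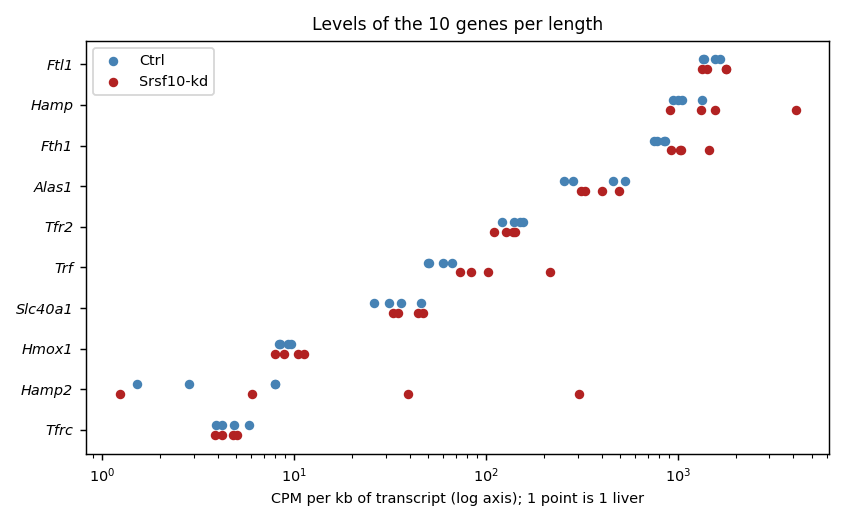
Level of the 10 genes in each liver as CPM per kb of transcript (x axis, log scale; 1 point for each liver; *Ctrl* in blue, *Srsf10-kd* in red). *Ftl1*, *Hamp* and *Fth1* have the highest *Ctrl* means (1484, 1083 and 806 CPM per kb) and *Tfrc* has the lowest (4.73 CPM per kb), while *Hamp2* has the widest spread.

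The surrounding pathway was read from 86 further genes in 6 lists, of which 84 were tested. Their log2 fold changes were split evenly, with 42 higher and 42 lower and a median of 0.00. None was called by edgeR, 3 had an unadjusted p under 0.05 and were higher (background 11.2%), and 11 were lower with such a p (background 10.6%). The groups did not overlap for 2 genes that were higher and 10 that were lower (backgrounds 6.73% and 7.53%). The 3 with a higher level were *Lcn2*, *Blvra* and *Bola3*. *Lcn2* and *Blvra* are named only because their values were seen.

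Among 17 genes that control hepcidin, 6 were higher and 11 lower, and the median of their log2 fold changes was −0.07, or −0.0014 with the length trend removed. *Bmp6*, the signal by which liver endothelium reports iron stores to hepatocytes, measured 3.78, 3.88, 4.48 and 5.67 CPM in *Ctrl* and 3.66, 3.67, 2.08 and 3.05 CPM in *Srsf10-kd*. The groups did not overlap, with *Srsf10-kd* 3, the liver with the most *Hamp*, the lowest. The log2 fold change of *Bmp6* was −0.51 ± 0.21 (adjusted p = 0.203, edgeR), and −0.36 without *Srsf10-kd* 3. *Neo1*, which binds the BMP co-receptor hemojuvelin, and *Acvr2a*, a BMP type II receptor, had log2 fold changes of −0.45 and −0.24 (adjusted p = 0.186 and 0.189, edgeR), and of −0.17 and −0.041 with the length trend removed. *Hfe*, the partner of TFR2, was at 50.2 ± 3.59 against 49.6 ± 2.71 CPM (SD, n = 4), a log2 fold change of 0.02 (adjusted p = 0.929, edgeR).

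Among 24 genes of iron and heme transport, 11 were higher and 13 lower, around a median of −0.09 on the log2 scale that was −0.0093 with the length trend removed and −0.045 without *Srsf10-kd* 3. *Ncoa4*, the receptor that carries ferritin to the lysosome for breakdown, measured 70.9, 68.0, 66.4 and 80.6 CPM in *Ctrl* and 50.2, 50.4, 21.8 and 48.4 CPM in *Srsf10-kd*. All *Srsf10-kd* livers were below all *Ctrl* livers, the reverse of the order seen for *Fth1*, and *Srsf10-kd* 3 was the lowest. A link between these messages was not tested. The log2 fold change of *Ncoa4* was −0.74 ± 0.24 (adjusted p = 0.150 by edgeR, 0.0548 by DESeq2). It was −0.64 with the length trend removed and −0.52 without *Srsf10-kd* 3. *Slc11a2*, the DMT1 transporter that moves iron out of endosomes, was also lower without overlap, at 24.4 ± 3.15 against 31.5 ± 2.81 CPM (log2 fold change −0.37, adjusted p = 0.154, edgeR). Its log2 fold change was −0.23 with the length trend removed and −0.28 without *Srsf10-kd* 3. *Lcn2*, a siderophore-binding protein of the acute phase, had a log2 fold change of 1.29 (adjusted p = 0.173, edgeR) with groups that overlapped, and of 0.58 without *Srsf10-kd* 1, where it was at 39.4 CPM.

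Of the 7 genes around the iron regulatory proteins, 1 was higher and 6 were lower. The list median was −0.29 on the log2 scale, −0.09 with the length trend removed and −0.22 without *Srsf10-kd* 3. *Ireb2*, which encodes the regulatory protein IRP2 that binds the elements printed above, measured 101, 105, 110 and 96.2 CPM in *Ctrl* and 86.5, 85.3, 75.1 and 90.0 CPM in *Srsf10-kd*. The groups did not overlap, and the log2 fold change was −0.29 ± 0.10 (adjusted p = 0.161, edgeR), or −0.09 with the length trend removed. *Cdc42bpa*, a kinase whose message is known to carry such an element, had a log2 fold change of −0.65 (adjusted p = 0.168, edgeR). It was −0.35 after that removal and −0.46 without *Srsf10-kd* 3.

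Of the 84 tested genes in the wider set DESeq2 called 1, a heme gene, where it called 5.21% of all genes it tested. *Bach1*, the heme-sensing repressor of *Hmox1* transcription, measured 60.0, 57.3, 50.3 and 63.8 CPM in *Ctrl* and 40.8, 34.5, 42.1 and 47.6 CPM in *Srsf10-kd*. Every *Srsf10-kd* liver was below every *Ctrl* liver, and *Srsf10-kd* 3 was not the lowest. The log2 fold change was −0.49 ± 0.12 (adjusted p = 0.116 by edgeR, 0.0163 by DESeq2), and −0.26 with the length trend removed. *Hmox2*, the constitutive heme oxygenase, had a log2 fold change of 0.21 (adjusted p = 0.299, edgeR), and *Blvra*, the biliverdin reductase of the next step, of 0.43 (adjusted p = 0.151, edgeR). With the length trend removed these were 0.062 and 0.16, and without *Srsf10-kd* 3 they were 0.10 and 0.29.

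Of the 7 heme breakdown genes, 4 were higher and 3 lower (median log2 fold change 0.18), and the median turned to −0.026 with the length trend removed and was 0.10 without *Srsf10-kd* 3. Of the 12 heme synthesis genes, 7 were higher and 5 lower (median 0.08, or 0.0020 with the length trend removed), none with an unadjusted p under 0.05. *Tmem14c*, a mitochondrial porphyrin transporter, had the smallest p (log2 fold change 0.37, adjusted p = 0.262, edgeR), and was at 0.057 with the length trend removed and 0.17 without *Srsf10-kd* 3. *Alas2*, the erythroid form of ALAS1, was at 116 ± 16.4 against 117 ± 18.5 CPM (SD, n = 4). Iron-sulfur cluster genes were mostly higher, 13 of 17, with a median of 0.26 that was 0.09 with the length trend removed and 0.15 without *Srsf10-kd* 3. *Bola3* and *Ndufab1*, which act in cluster assembly, had log2 fold changes of 0.43 and 0.35 (adjusted p = 0.195 and 0.229, edgeR), and of 0.25 and 0.19 without that liver.

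**Figure D4:**
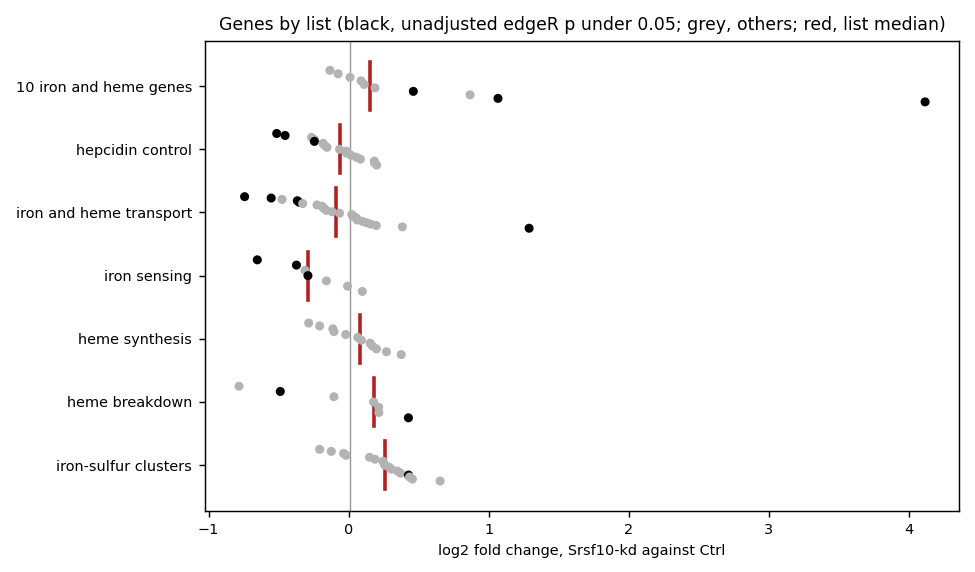
Log2 fold change, *Srsf10-kd* against *Ctrl* (x axis), of the 10 genes and of the tested genes in 6 further lists (1 point for each gene; black, unadjusted edgeR p under 0.05; red line, list median). The medians lie between −0.29 (iron sensing) and 0.26 (iron-sulfur clusters), and 0 of the points has an adjusted p under 0.05.

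Markers of other programs and cells are given as values beside these results. Of 13 acute phase genes 12 were higher (median 0.35 on the log2 scale, or 0.26 with the length trend removed). Their summed level ran from 9962 to 14610 CPM in *Srsf10-kd* and from 9713 to 11596 CPM in *Ctrl*. *Saa1* and *Saa2*, near-identical genes whose counts are uncertain, were called higher by DESeq2 (adjusted p = 0.0418 and 0.0333) and not by edgeR (0.132 and 0.133), and their log2 fold changes of 3.16 and 3.75 were 1.58 and 1.64 without *Srsf10-kd* 1. *Saa1* was at 747 CPM in *Srsf10-kd* 1, the liver with the least *Hamp*. It was at 130 CPM in *Srsf10-kd* 3, the liver with the most *Hamp*, and at 102 and 17.6 CPM in *Srsf10-kd* 2 and 4. The highest *Ctrl* liver had 42.2 CPM of *Saa1*, so *Srsf10-kd* 3 was above every *Ctrl* liver for this gene too. Whether the acute phase had a part in the *Hamp* level was not tested. Of 8 NRF2 targets, the program that also induces *Hmox1* and ferritin, 4 were higher and 4 lower, and *Srsf10-kd* 3 had the lowest sum (706 CPM). *Txnrd1* and *Nqo1* had log2 fold changes of −0.33 and 0.37 (adjusted p = 0.278 and 0.316, edgeR), and of −0.18 and 0.51 without *Srsf10-kd* 3.

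Hepatocyte markers, all detected, summed to 92161 to 110025 CPM in *Srsf10-kd* and 75443 to 102691 CPM in *Ctrl*, with 4 of 8 higher. *Apob* among them had a log2 fold change of −0.93 (adjusted p = 0.115 by edgeR, 0.00272 by DESeq2). By edgeR it was −0.75 without *Srsf10-kd* 3 and −0.56 with the length trend removed. Erythroid markers, which matter here because red cell precursors carry heme and transferrin receptor, were higher for 5 of 7. Their median was 0.80 on the log2 scale, 0.44 without *Srsf10-kd* 3 and 0.38 with the length trend removed. They summed to 334 and 295 CPM in *Srsf10-kd* 1 and 2 and to 801 and 638 CPM in *Srsf10-kd* 3 and 4, against 292 to 381 CPM in *Ctrl*. *Hba-a2*, whose reads may be shared with its copy *Hba-a1*, was called by DESeq2 (adjusted p = 0.0243 with all livers). Its edgeR log2 fold change was 1.37, or 0.89 without *Srsf10-kd* 3 and 0.88 with the length trend removed. Cholangiocyte markers were higher for 5 of 5 and summed to 46.5 to 68.6 CPM against 31.4 to 39.1 CPM, the list for which every *Srsf10-kd* liver was above every *Ctrl* liver, as for *Trf* and *Fth1*. *Krt19* was called by DESeq2 (log2 fold change 0.73, adjusted p = 0.00830), and its log2 fold change was 0.57 with the length trend removed. The sums overlapped for macrophage (202 to 358 against 257 to 359 CPM), endothelial (293 to 357 against 334 to 394 CPM) and stellate markers (178 to 301 against 198 to 218 CPM), with 6 of 12, 4 of 9 and 5 of 8 higher. Among the endothelial markers DESeq2 called *Ehd3* (log2 fold change −0.53, adjusted p = 0.0446), which was at −0.45 with the length trend removed. No marker was at 0 in all livers. The part of these cells and programs in the differences above was not tested.

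Across the 8 livers some genes followed the iron and heme genes closely, given here as a description among 8116 genes compared by their log2 CPM, with groups and library composition shared by all points. *Hmox1* was followed by the metallothioneins *Mt2* (r = 0.98) and *Mt1* (r = 0.92), which bind zinc and copper, and by *Sirpa* (r = 0.92), and these were 0.96, 0.78 and 0.88 without the 2 livers farthest from the median of *Hmox1*. *Hamp* was followed by *Dapk3*, *Mir22hg* and *Csrnp1* (r = 0.97 each), which fell to 0.74, 0.80 and 0.57 without *Srsf10-kd* 3 and 4. *Alas1* was followed by *Nfil3*, a repressor of the circadian clock (r = 0.88), *Setd6* (0.86) and *Irf2bpl* (0.84), and *Tfrc* by *Epb41l5* (0.85), *Rtkn* (0.84) and *Tacc2* (0.84), and without their 2 farthest livers these ran from 0.73 to 0.93 and from 0.69 to 0.92. Spearman's rho was 0.93 to 0.98 for the *Hmox1* trio, 0.76 to 0.88 for that of *Hamp*, 0.71 to 0.83 for that of *Alas1* and 0.76 to 0.93 for that of *Tfrc*.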

How the data were processed

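The authors made paired-end libraries of poly(A)-enriched liver RNA, mapped them with STAR 2.7.7a on GRCm38, and deposited the raw counts that STAR made for each gene, without normalization. The annotation release and strand column are not given in the sources used here. The deposited counts summed to between 50456404 and 59697241 for each liver. Groups were taken from the sample labels.

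Counts were analysed in R 4.3.3 with edgeR 4.0.16 (TMM, filterByExpr, quasi-likelihood test of *Srsf10-kd* against *Ctrl* on group alone, two-sided, Benjamini-Hochberg adjustment over 15491 genes, call at an adjusted p under 0.05). CPM are TMM-scaled, with a prior count of 2 for log2 levels. For single genes a two-sided exact permutation p was taken over all 70 ways to divide the livers. Alternatives were DESeq2 1.42.0, which the authors used, limma-voom (limma 3.58.1, sample quality weights), other scalings and filters, a replicate block, fits without each liver in turn, and an offset that takes out the dependence of log2 counts on transcript length in each library (lowess, span 0.5).

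The members and gene lists were chosen with earlier results of these data known, so no list had a test. Outside the members, the genes named are those called by edgeR or DESeq2 (up to 3 for each list), otherwise the 2 with the smallest edgeR p, plus partner genes of the members and, for likeness, the 3 genes with the highest Pearson r. Positions, lengths and sequences are from GENCODE M21 (GRCm38). Of the genes and sequences this rule gives, 1 gene and the promoters are not reported here. Of the 45706 identifiers, 45143 had a symbol in GENCODE M21. The tests were checked on simulated counts with known changes, which held no deviating liver and no length trend. That check does not tell which tool holds for these livers.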

Additional observations from a re-analysis of the deposited data

Results flagged for a closer look

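Each of 25 measures was examined in both groups of 4 livers (50 groups) for a liver far from the others of its group, and 3 were found, where chance alone flags about 1 in 20 groups. *Hamp2* was at 134 CPM in *Srsf10-kd* 2, with the other *Srsf10-kd* livers between 0.540 and 17.2 CPM, and the gap was 0.875 of the group's range, past Dixon's critical value. The summed level of the heme synthesis genes was 1038 CPM in *Ctrl* 4, below the 1220 to 1240 CPM of the other *Ctrl* livers (0.901 of the range). The summed level of the NRF2 targets was 706 CPM in *Srsf10-kd* 3, below the 924 to 959 CPM of the other *Srsf10-kd* livers (0.863 of the range).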

How the results depend on the processing

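The number of genes called over the whole table depended strongly on the tool and the livers. It was 11 by edgeR, 819 by DESeq2, 1814 by limma-voom, 46 without the filter on low counts and 6 with the transcript length trend removed. With each liver left out in turn it ran from 0 to 544. The 544 came when *Ctrl* 3 was left out, leaving out *Srsf10-kd* 3 gave 64, and 0 were called in the fits that dropped *Ctrl* 2 or any *Srsf10-kd* liver other than the third. Of the 10 iron and heme genes, DESeq2 and limma-voom called 1 each (*Trf*), and every other setting called 0. Of the 84 further genes, DESeq2 called 1 (*Bach1*) and limma-voom 8 (*Bach1*, *Blvra*, *Cd163*, *Cdc42bpa*, *Ncoa4*, *Neo1*, *Slc11a2* and *Slc39a14*). Over all genes they tested, these tools called 5.21% and 11.7%. Leaving out single livers gave 0 to 3 of the further genes. The 3 without *Ctrl* 3 were *Bach1*, *Neo1* and *Slc39a14*, in the fit that called 544 of 15682 genes. For the order of levels per kb, 8 of 10 genes kept their place with the union of exons. The causes were not tested.

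The replicate number as a block gave 59 calls over all genes and called 0 of the 10 genes. The labels do not say that a number is shared by litter or day. Same-numbered livers deviated from their group means with correlations of −0.18, 0.21, 0.27 and 0.22. Livers of unlike number were not compared in this way, so whether a number stands for a shared batch was not tested.

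The log2 fold changes of the 10 genes kept direction and call in 145 of their alternative values, were called in 2 more (*Trf* at 1.05 by DESeq2 and 0.63 by limma-voom) and turned sign in 13. The turned values were −0.20 for *Ftl1*, 0.10 for *Tfrc* and −0.070 for *Hmox1* with the length trend removed, −0.023 for *Slc40a1* by limma-voom, and for *Alas1* −0.15 by limma-voom, −0.0040 by DESeq2, −0.0054 with library size only and −0.0019 without the filter. With single livers left out, *Alas1* ran from −0.14 to 0.20 and *Tfrc* from −0.16 to 0.043. *Trf* ran from 0.61 to 1.24, *Fth1* from 0.30 to 0.54, *Hamp* from 0.22 to 1.10 and *Hamp2* from 1.60 to 4.52, and none was called. Depth did not limit the abundant members, with *Hamp2* the exception at 31 counts in its lowest liver.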
